A study of Rattus norvegicus with 8 samples.

Results

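The genes described here are 7 enzymes of arginine and creatine metabolism in the rat kidney, Gatm, Ass1, Asl, Arg2, Oat, Ddah1 and Agmat. They were taken by name, as every probe set annotated to exactly 1 gene symbol among these 7. Each gene had 1 such probe set and all 7 passed the filter on dim genes, so 7 genes of 13796 tested (17245 named from 1 symbol) are followed. Whole kidneys of HSRA rats, a model of unilateral renal agenesis derived from a heterogeneous stock, were profiled at 4 weeks of age on Affymetrix Rat Gene 1.1 ST arrays. The HSRA-S group was 4 kidneys from animals born with 1 kidney, labelled congenital solitary kidney. The HSRA-C group was 4 kidneys from animals with 2 kidneys, which carry the same HSRA background and served as controls. No treatment is named for either group, and the labels read here name neither sex, litter nor the side of the kidney. The comparison addresses how a kidney that developed alone differs from a kidney of a pair in the same strain.

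The kidney is the main site where arginine is newly made for the circulation. Citrulline released by the gut is taken up in the proximal tubule, where argininosuccinate synthase (Ass1) joins it to aspartate and argininosuccinate lyase (Asl) splits the product into arginine and fumarate. Arginine then feeds glycine amidinotransferase (Gatm), the mitochondrial enzyme that makes guanidinoacetate, the precursor that the liver methylates to creatine. It also feeds arginase 2 (Arg2), which yields ornithine and urea in the mitochondria, and the nitric oxide synthases. Ornithine aminotransferase (Oat) carries ornithine towards glutamate and proline, Ddah1 breaks down asymmetric dimethylarginine, an inhibitor of nitric oxide synthases, and Agmat is named for the hydrolysis of agmatine to putrescine.

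Promoter sequences were read from RefSeq (GRCr8 assembly) for 6 of the 7 genes, Arg2 not among them. The promoters of Asl and Gatm are shown because these genes had the smallest p-values, and that of Oat because its level spread most among the control kidneys. Each is written 5′ to 3′ on the gene's own strand and ends just before the annotated start of the RefSeq transcript, except that of Asl, which is shortened to the bases before the annotated gene. That of Gatm lies inside the span of a longer annotated transcript. Capitals mark matches to CCAAT (the CCAAT box, ATTGG on the other strand) or GGGCGG (the GC box, CCGCCC on the other strand).
Asl, chr12:32295658-32295778, plus strand: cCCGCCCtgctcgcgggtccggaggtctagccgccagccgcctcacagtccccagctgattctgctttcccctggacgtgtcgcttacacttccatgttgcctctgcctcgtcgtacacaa
Gatm, chr3:130129094-130129343, minus strand: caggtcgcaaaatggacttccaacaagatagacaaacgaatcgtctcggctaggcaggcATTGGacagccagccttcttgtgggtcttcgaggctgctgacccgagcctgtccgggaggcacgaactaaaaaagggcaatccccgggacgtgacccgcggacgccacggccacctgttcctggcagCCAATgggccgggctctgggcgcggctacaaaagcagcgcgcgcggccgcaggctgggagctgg
Oat, chr1:196797755-196798004, minus strand: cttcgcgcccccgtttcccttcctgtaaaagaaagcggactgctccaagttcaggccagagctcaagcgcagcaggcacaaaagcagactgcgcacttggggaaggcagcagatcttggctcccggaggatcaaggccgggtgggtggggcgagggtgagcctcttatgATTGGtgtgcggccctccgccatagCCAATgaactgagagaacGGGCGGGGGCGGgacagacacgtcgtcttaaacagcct

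Within 250 bases before the start, a CCAAT box was found for Gatm and Oat, 2 of the 6 genes, and in 34.0% of all 33469 promoters of the table. A GC box was found for Asl and Oat, 2 of 6, against 30.5% of all promoters, and the 2 GC boxes of Oat stood next to each other at 38 and 32 bases before its start. TATAAA, the TATA box, was present for Ass1 alone among the 6 and in 12.9% of all promoters. The windows of Ass1 and Agmat, like that of Gatm, lie inside the annotated span of their gene. No member's window held CACGTG (an E-box, in 5.59% of all promoters), TGACGTCA (a cAMP response element, in 1.59%) or CAAAGTCCA (a site bound by HNF4, in 0.338%). Both strands were searched, and no match of one motif overlapped a match of another in these windows. These matches are letters in the sequence and were not tested as binding sites.

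No member passed the test between the groups, in either direction, and neither did any gene of the array: 0 of 7 members and 0% of the 13796 genes had an adjusted p under 0.05 (limma, Benjamini-Hochberg over all genes). At an unadjusted p under 0.05, limma put 1016 genes higher and 647 lower in HSRA-S. Median intensities of the 8 arrays ran from 30.8 to 32.3, and the arrays correlated at 0.987 to 0.995 on the log2 scale. The proximal tubule, where most of these enzymes are made, was represented by 13 tested markers of 14, with a mean log2 level of 10.36 to 10.83 in HSRA-S and 10.17 to 10.43 in HSRA-C. HSRA-C replicates 3 and 4 stood apart: the mean of 4 inner medulla markers was 9.37 and 9.55 there, and between 6.60 and 8.42 in the other 6 arrays. HSRA-S replicate 4 had the lowest mean of these markers, 6.60, and the highest of the proximal tubule markers. Marker means of collecting duct ran from 7.91 to 8.25 in HSRA-S, against 8.11 to 8.37 in HSRA-C, and those of thick limb from 10.12 to 10.42, against 10.34 to 10.45 in HSRA-C. Endothelium (3 tested markers of 5) ran from 8.37 to 8.50 in HSRA-S, against 8.48 to 8.71 in HSRA-C, and adrenal (2 of 3) from 4.77 to 4.95, against 4.93 to 5.14 in HSRA-C. The endothelial and adrenal lists each had 1 marker whose groups did not overlap, on the lower side. These were Cdh5 at a difference of -0.21 and Cyp11b1 at -0.26, both with a limma adjusted p of 0.331. On the higher side, the groups did not overlap for 2 proximal tubule markers, Slc2a2 at 0.75 and Slc6a19 at 0.48, and 1 fat marker, Plin1 at 0.15. Over all genes tested, this held for 4.12% on the higher side and 2.17% on the lower side. Podocyte means ran from 7.59 to 7.81 in HSRA-S, against 7.70 to 7.84 in HSRA-C, and stroma from 7.76 to 8.03, against 7.88 to 8.18 in HSRA-C. Leukocyte means ran from 5.15 to 5.48 in HSRA-S, against 4.95 to 5.26 in HSRA-C, and fat from 4.35 to 4.56, against 4.17 to 4.47 in HSRA-C. The part of these lists in the members' values was not tested. In whole kidney, fewer cells of a type and less RNA per cell cannot be told apart. The differences of the 7 members are therefore also given without HSRA-C replicates 3 and 4, and with a covariate, the proximal tubule mean minus the collecting duct mean (12 tested markers of 13). That balance ran from 2.24 to 2.92 in HSRA-S and from 1.84 to 2.28 in HSRA-C. It thus went largely with the group, and Slc2a2 and Slc6a19 are among its markers. A fit with this covariate therefore cannot tell group and tubule balance apart.

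Gatm was even in the solitary kidneys and spread out in the controls. Its log2 level was 11.29, 11.35, 11.38 and 11.38 in HSRA-S replicates 1 to 4, against 11.13, 11.36, 10.84 and 10.79 in HSRA-C replicates 1 to 4. HSRA-C replicate 2 reached the HSRA-S values, so the groups overlapped, and HSRA-C replicates 3 and 4 lay well below all others. The means were 11.35 ± 0.040 in HSRA-S, against 11.03 ± 0.26 in HSRA-C (4 arrays each, ± SD). Gatm was 1.25-fold higher in HSRA-S, a log2 difference of 0.32 with a 95% interval from 0.065 to 0.58, and did not pass (limma adjusted p = 0.358, exact two-sided permutation p = 0.0857). Without HSRA-C replicates 3 and 4 the difference was 0.11 (interval -0.092 to 0.31), and with the tubule balance as a covariate it was 0.16 (interval -0.14 to 0.45). Dropping HSRA-S replicate 4 alone gave a difference of 0.31. Of the genes tested, 93.8% varied at least as much as Gatm among the HSRA-S arrays, and 6.37% among the HSRA-C arrays.

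Asl and Ass1 act in sequence, and Asl was the member whose groups separated. Asl stood at log2 7.85, 7.84, 7.74 and 8.16 in HSRA-S replicates 1 to 4, against 7.48, 7.71, 7.25 and 7.30 in HSRA-C replicates 1 to 4. Every solitary kidney was above every control, though HSRA-S replicate 3 exceeded HSRA-C replicate 2 by little. The means were 7.90 ± 0.18 in HSRA-S, against 7.43 ± 0.21 in HSRA-C (4 arrays each, ± SD), 1.38-fold higher in HSRA-S. The log2 difference of 0.46 (95% interval 0.20 to 0.73) had a limma adjusted p of 0.331 and an exact permutation p of 0.0286, the smallest that 4 against 4 can give. It was 0.31 (interval 0.0081 to 0.60) without HSRA-C replicates 3 and 4 (limma adjusted p = 0.977, exact permutation p = 0.133). Leaving out arrays cannot make separate groups overlap, so the lack of overlap there adds nothing. With the tubule balance as a covariate it was 0.20 (interval -0.0043 to 0.41). Dropping HSRA-S replicate 4 alone, the highest array for Asl, gave a difference of 0.38.

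Ass1 stood at log2 11.57, 11.46, 11.46 and 11.77 in HSRA-S, against 11.50, 11.56, 11.28 and 11.26 in HSRA-C. The range of HSRA-S replicates 1 to 3 held HSRA-C replicates 1 and 2, while HSRA-S replicate 4 was the highest array and HSRA-C replicates 3 and 4 were the lowest. Means were 11.56 ± 0.14 in HSRA-S, against 11.40 ± 0.15 in HSRA-C (4 arrays each, ± SD), a log2 difference of 0.17 with an interval from -0.047 to 0.38 (limma adjusted p = 0.507). The difference was 0.099 without HSRA-S replicate 4 alone. It was 0.037 without HSRA-C replicates 3 and 4, and -0.035 with the covariate, where its sign turned.

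**Figure D1:**
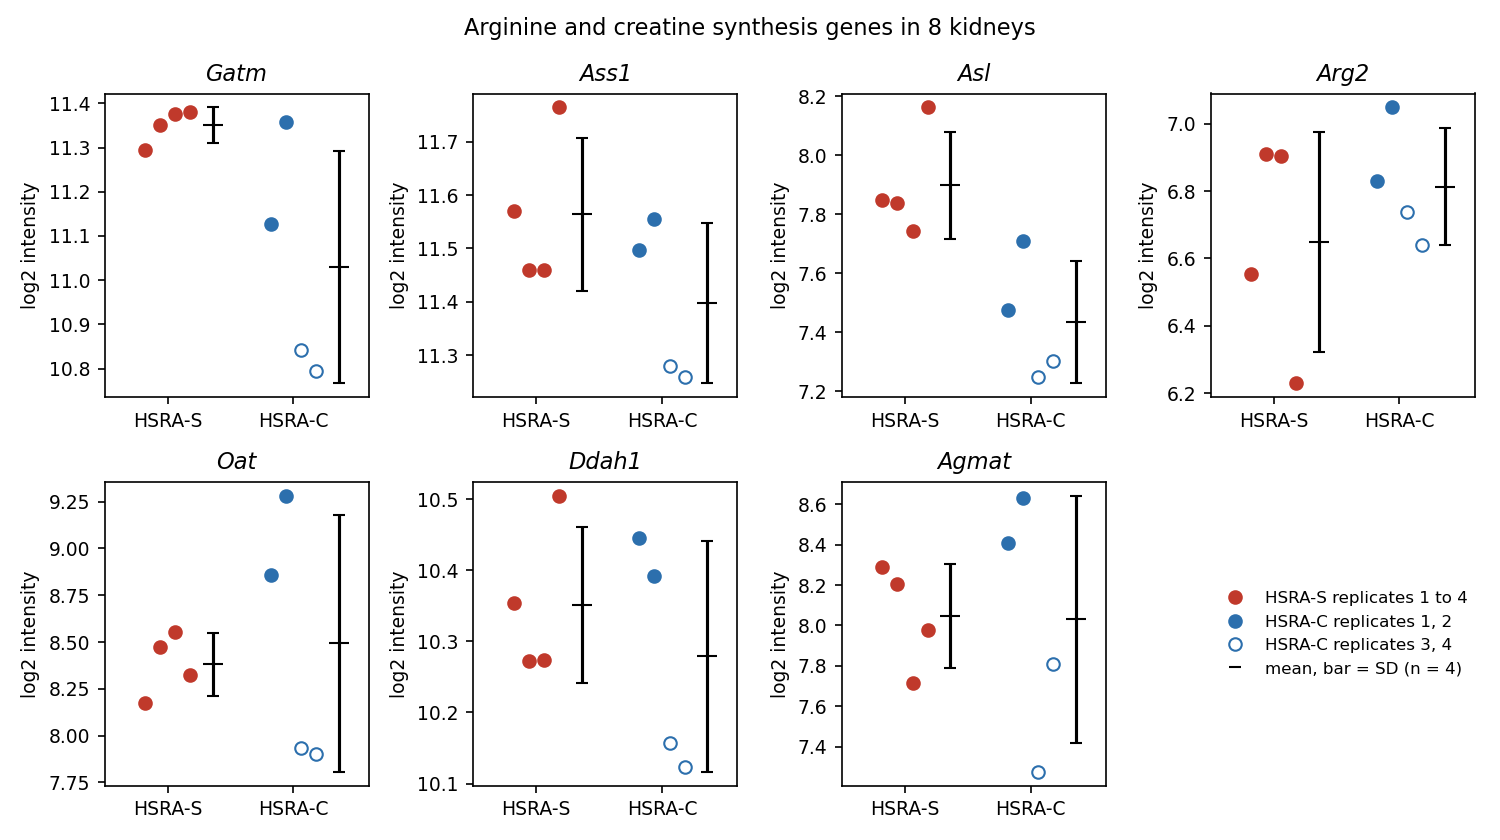
Log2 intensity (vertical axis, a separate scale for each gene) of the 7 genes in 4 HSRA-S kidneys (red) and 4 HSRA-C kidneys (blue, with replicates 3 and 4 open); black bars give the mean and SD of each group. Asl shows no overlap between the groups, and Oat spans 7.90 to 9.28 in HSRA-C against 8.17 to 8.55 in HSRA-S.

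The ornithine enzymes Arg2 and Oat had negative differences. Arg2 stood at log2 6.55, 6.91, 6.90 and 6.23 in HSRA-S replicates 1 to 4, against 6.83, 7.05, 6.74 and 6.64 in HSRA-C. HSRA-S replicate 4, the array highest for Ass1 and Asl, was the lowest for Arg2. The means were 6.65 ± 0.33 in HSRA-S, against 6.81 ± 0.18 in HSRA-C (4 arrays each, ± SD), and the difference of -0.16 (interval -0.50 to 0.17) did not pass (limma adjusted p = 0.688). It was -0.025 without HSRA-S replicate 4, -0.29 without HSRA-C replicates 3 and 4, and -0.029 with the covariate.

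Arginase 2 is known from the straight part of the proximal tubule, whose 4 markers, all tested, had a mean log2 level of 8.44 to 8.55 in HSRA-S and 8.54 to 8.77 in HSRA-C. Slc7a13, an amino acid transporter of that segment, was at a difference of -0.28 (interval -0.48 to -0.068; limma adjusted p = 0.346). The other 3 markers of the segment lay between -0.26 and 0.030. Their part in the values of Arg2 was not tested.

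Oat varied far more among the control kidneys than between the groups. It stood at log2 8.17, 8.48, 8.55 and 8.33 in HSRA-S, against 8.86, 9.28, 7.94 and 7.90 in HSRA-C replicates 1 to 4. HSRA-C replicates 1 and 2 lay above every solitary kidney, and HSRA-C replicates 3 and 4 below every one, so that the HSRA-S values sat in a gap of the controls. The means were 8.38 ± 0.17 in HSRA-S, against 8.49 ± 0.69 in HSRA-C (4 arrays each, ± SD). The difference of -0.11 had an interval from -0.73 to 0.51 (limma adjusted p = 0.904). Among the controls, an SD as large as that of Oat was found for 44 genes, or 0.319% of those tested. Without HSRA-C replicates 3 and 4, the difference of Oat was -0.69, 1.61-fold lower in HSRA-S (interval -1.02 to -0.35). That did not pass either (limma adjusted p = 0.977 over all genes), and its exact permutation p of 0.0667 is the smallest that 4 against 2 can give. Without HSRA-C replicate 2 alone the difference was 0.15, and without HSRA-C replicate 1 alone it was 0.0090, so that the direction rested on those arrays. With the tubule balance as a covariate it was -0.49 (interval -1.24 to 0.25).

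Agmat followed Oat in its spread. It stood at log2 8.29, 8.20, 7.71 and 7.98 in HSRA-S, against 8.41, 8.63, 7.28 and 7.81 in HSRA-C. HSRA-C replicates 1 and 2 were again the highest arrays and HSRA-C replicate 3 the lowest. Means were 8.05 ± 0.26 in HSRA-S, against 8.03 ± 0.61 in HSRA-C (4 arrays each, ± SD), with a difference of 0.016 (interval -0.57 to 0.60; limma adjusted p = 0.988). An SD among the controls as large as that of Agmat was found in 0.471% of genes tested. Without HSRA-C replicates 3 and 4, Agmat had a log2 difference of -0.47, 1.39-fold lower in HSRA-S (interval -0.84 to -0.10; limma adjusted p = 0.977). With the covariate it was -0.32 (interval -1.03 to 0.39).

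Ddah1 was close in both groups. It stood at log2 10.35, 10.27, 10.27 and 10.51 in HSRA-S, against 10.45, 10.39, 10.16 and 10.12 in HSRA-C. HSRA-C replicates 3 and 4 were the lowest arrays, and the other controls lay inside the HSRA-S range. The difference was 0.072 (interval -0.13 to 0.28; limma adjusted p = 0.789), an interval that leaves out a fold of 1.38 such as that of Asl in either direction. It was 0.0205 without HSRA-S replicate 4 alone, -0.067 without HSRA-C replicates 3 and 4 and -0.11 with the covariate.

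**Figure D2:**
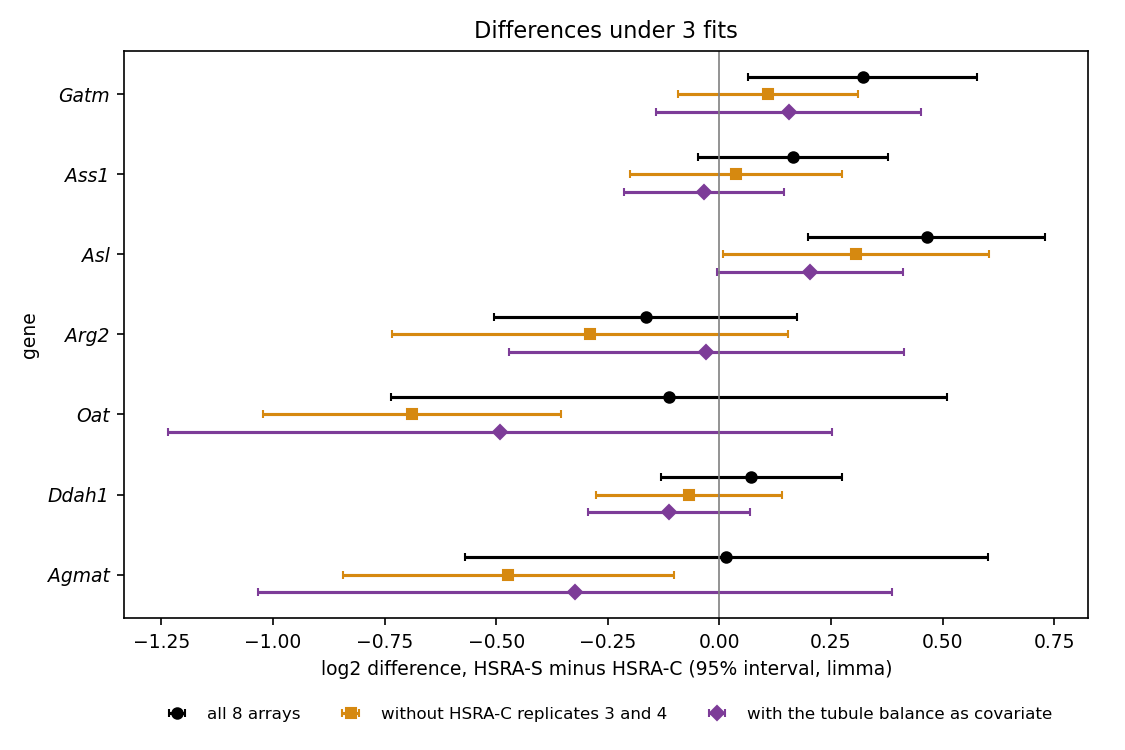
Log2 difference, HSRA-S minus HSRA-C (horizontal axis), with its 95% interval from limma for the 7 genes (vertical axis), from all 8 arrays (black), without HSRA-C replicates 3 and 4 (orange) and with the proximal tubule to collecting duct balance as a covariate (purple). Asl stays positive in the 3 fits, at 0.46, 0.31 and 0.20, and Oat moves to -0.69 without the 2 control arrays, against -0.11 with all arrays.

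Taken by counts, 5 of the 7 members had a positive difference, with a median of 0.072 against 0.015 over all genes tested. At an unadjusted p under 0.05, Gatm and Asl were higher and none was lower, 2 and 0 of 7, where 7.36% of all genes tested were higher and 4.69% were lower. With 7 genes, these counts carry little beyond the values themselves. The groups did not overlap for Asl alone, on the higher side, where this held for 4.12% of all genes, and for 0 members on the lower side, against 2.17%. Without HSRA-C replicates 3 and 4, the members at an unadjusted p under 0.05 were Asl on the higher side (2.68% of all genes) and Oat and Agmat on the lower side (2.17% of all genes). With the covariate, which went largely with the group, there were 0 members on either side, while 5.33% of all genes were higher and 2.43% lower. HSRA-C replicates 3 and 4 held the lowest values of all 8 arrays in 5 of the 7 members, namely Gatm, Ass1, Asl, Oat and Ddah1, a pattern found in 11.9% of genes tested.

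**Figure D3:**
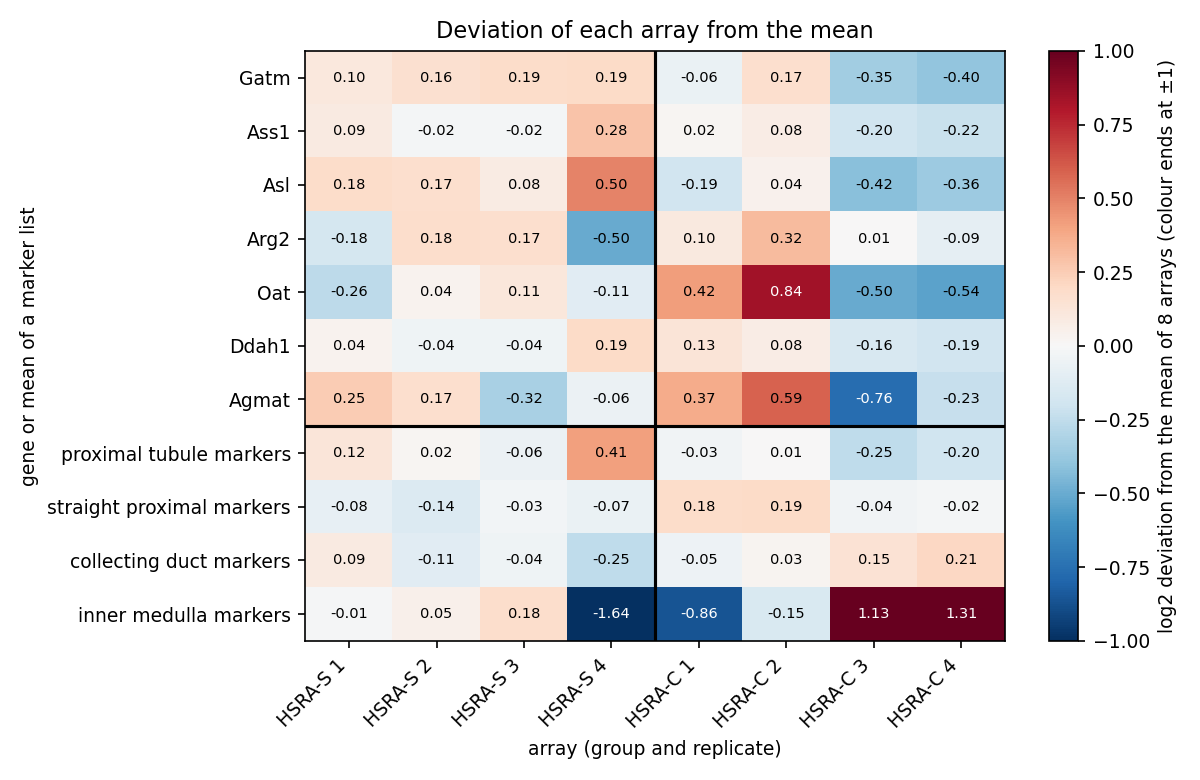
Deviation of each array (horizontal axis) from the mean of all 8 arrays, in log2 units given in the cells and by colour, for the 7 genes and for the means of 4 marker lists (vertical axis). HSRA-C replicates 3 and 4 are below the mean for 6 and 7 of the genes in that order, and are the highest arrays for the inner medulla markers, at 9.37 and 9.55.

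Over the 8 arrays, which share the groups and the 2 control arrays that stood apart, Pearson's r was 0.91 between Ass1 and Asl, 0.88 between Gatm and Asl, and 0.93 between Ass1 and Ddah1. Without HSRA-C replicates 3 and 4 these were 0.76, 0.72 and 0.79. Other pairs among these 4 genes did not stay high without those arrays. Gatm and Ass1 were at 0.81 over the 8 arrays and 0.27 over the 6, Asl and Ddah1 at 0.71 and 0.23, and Gatm and Ddah1 at 0.70 and -0.30. Arg2 ran the other way from Ass1, Asl and Ddah1, at -0.41, -0.38 and -0.26, and at -0.85, -0.75 and -0.61 without those 2 arrays. Spearman's rho over the 8 arrays was weaker, at -0.25, -0.26 and -0.12. HSRA-S replicate 4 was the highest array for Ass1, Asl and Ddah1 and the lowest for Arg2. Arg2 was at 0.06 with Gatm and 0.58 with Oat, and at -0.12 and 0.70 on the 6 arrays. Oat and Agmat had an r of 0.75, and of 0.61 on the 6 arrays. Oat and Asl, at 0.27 over all arrays, were at -0.59 on the 6 arrays. These values describe 8 kidneys and carry no test.

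For each member the genes with the highest Pearson's r over the 8 arrays were listed among all genes tested, the members and unnamed gene models left out. Such values are high by selection from all the genes tested. Asl was most like Slc6a19, the apical transporter of neutral amino acids in the proximal tubule, at an r of 0.996 (Spearman's rho 0.976, and r of 0.997 without HSRA-C replicates 3 and 4). Slc6a19 was itself 1.39-fold higher in HSRA-S, with 9.40 ± 0.23 on the log2 scale there, against 8.92 ± 0.21 in HSRA-C (4 arrays each, ± SD; limma adjusted p = 0.331). Slc6a19 is also 1 of the proximal tubule markers in the balance used as a covariate. Next were Aldh7a1, an enzyme of lysine breakdown (0.977), and Lgmn, a lysosomal protease (0.974).

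Oat was most like Odc1, ornithine decarboxylase, the enzyme that turns ornithine into putrescine, at an r of 0.970 (rho 0.976, and 0.948 on the 6 arrays). Odc1 stood at log2 8.20, 8.27, 8.46 and 8.02 in HSRA-S, against 8.91, 9.11, 7.83 and 7.65 in HSRA-C replicates 1 to 4. As for Oat, HSRA-C replicates 1 and 2 were above and HSRA-C replicates 3 and 4 below every solitary kidney. Its difference was -0.14 (interval -0.81 to 0.53; limma adjusted p = 0.888), and -0.77 (interval -1.06 to -0.48) without HSRA-C replicates 3 and 4, and -0.47 (interval -1.31 to 0.38) with the covariate. An SD among the controls as large as that of Odc1 was found for 35 genes. Next after Odc1 came Qars1, the glutaminyl-tRNA synthetase (0.968), and Prpf18, a splicing factor (0.961). The straight proximal markers had their highest means in HSRA-C replicates 1 and 2, 8.76 and 8.77, but were at 8.54 and 8.56 in HSRA-C replicates 3 and 4, inside or just above the HSRA-S range of 8.44 to 8.55. Their part in the values of Oat and Odc1 was not tested.

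**Figure D4:**
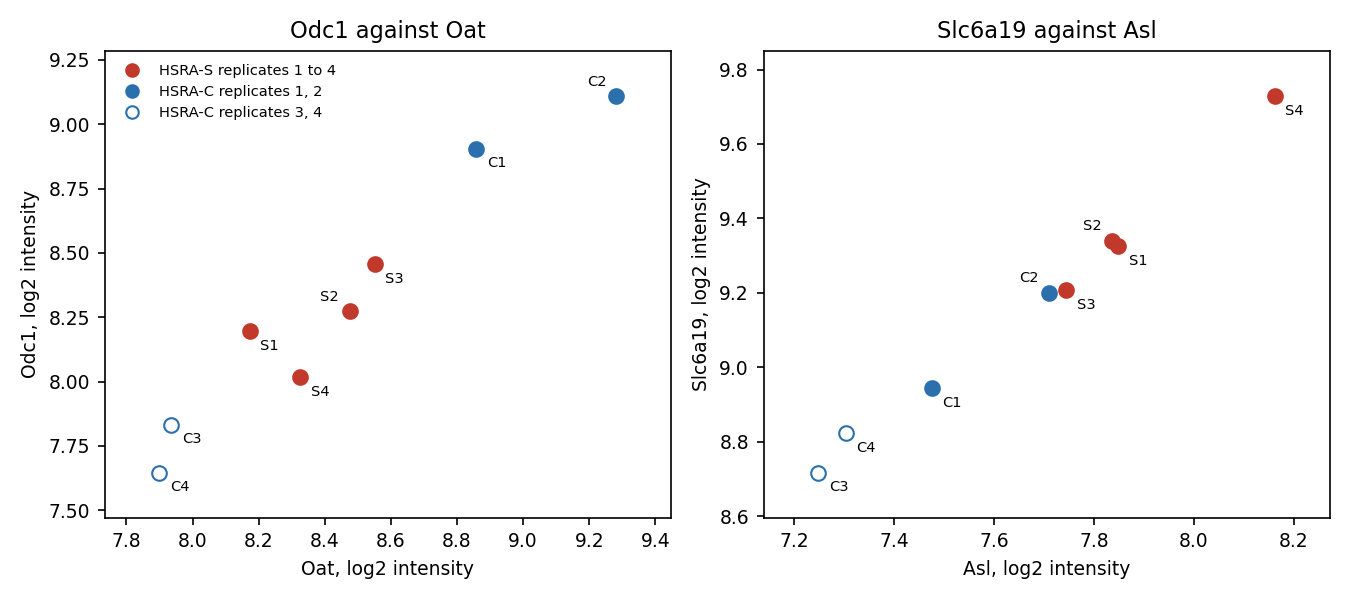
Log2 intensity of Odc1 against Oat (left) and of Slc6a19 against Asl (right) in each of the 8 kidneys, HSRA-S in red and HSRA-C in blue (replicates 3 and 4 open). The HSRA-S kidneys lie between the control pairs for Oat and Odc1 (r = 0.970), and above the controls in Asl (r = 0.996 with Slc6a19).

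Ass1 was most like Ces2g, a carboxylesterase (r = 0.988), Gpx3, the secreted glutathione peroxidase (0.988), and Slc25a13, a mitochondrial carrier that exports the aspartate Ass1 uses (0.983). Gatm was most like Oplah, which hydrolyses 5-oxoproline (0.986), Eno1, a glycolytic enolase (0.980), and Tmem183a (0.977). The r of Oplah and Eno1 was 0.876 and 0.808 without HSRA-C replicates 3 and 4. Arg2 was most like Pex14, a peroxisomal import protein (0.974), Cdo1, the cysteine dioxygenase (0.968), and Slc22a13, an organic anion transporter (0.957). Ddah1 was most like Adk, adenosine kinase (0.980), Manba, a lysosomal mannosidase (0.976), and Abat, which breaks down GABA (0.975). Agmat was most like Nucb1 (0.959), Mtch1 (0.954) and Ric8a (0.948).

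Other genes of the pathway were read from 6 lists of 47 entries, of which 40 genes were tested. At an adjusted p under 0.05, 0 of the 40 were called. At an unadjusted p under 0.05, 8 were higher and 1 was lower, 20% and 2.5% of the 40, against 7.36% and 4.69% of all genes. Their median difference was 0.046, against 0.015 over all genes. The counts were 3 higher and 3 lower without HSRA-C replicates 3 and 4, where 2.68% of all genes were higher and 2.17% lower. With the covariate they were 5 higher and 1 lower, where 5.33% of all genes were higher and 2.43% lower.

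In the creatine list, the transporters had the larger differences. Slc6a8, the creatine transporter of the cell membrane, stood at log2 10.58, 10.48, 10.48 and 10.62 in HSRA-S, against 10.38, 10.48, 9.91 and 10.02 in HSRA-C. The groups met at log2 10.48, without overlapping, and HSRA-C replicates 3 and 4 were again the lowest. Slc6a8 was 1.27-fold higher (difference 0.35, interval 0.076 to 0.62; limma adjusted p = 0.358), at 0.11 without HSRA-C replicates 3 and 4 and at 0.14 with the covariate. Slc16a12, a transporter that releases creatine from cells, was at 0.26 (interval 0.025 to 0.50), at 0.098 without those arrays and at 0.076 with the covariate. Gamt, the methyltransferase that completes creatine, was at 0.020 (interval -0.18 to 0.22), and the creatine kinases Ckb, Ckm and Ckmt1 lay between -0.039 and 0.053. Gamt turned to -0.10 without those arrays and to -0.13 with the covariate, and Ckb to 0.24 with the covariate. Of 6 genes tested here, 2 were higher and 0 lower at an unadjusted p under 0.05 (7.36% and 4.69% of all genes).

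In the urea cycle list, 5 of 5 genes tested had a positive difference with all arrays, as had 7646 of the 13796 genes, and 2 were higher at an unadjusted p under 0.05 (7.36% of all genes). The common sign did not hold in the other fits, where Arg1 was at -0.079 without HSRA-C replicates 3 and 4, and Arg1 at -0.0020 and Slc25a15 at -0.0093 with the covariate. Nags, which makes the N-acetylglutamate needed by the urea cycle, stood at log2 4.77, 4.79, 4.71 and 4.75 in HSRA-S, against 4.37, 4.53, 4.53 and 4.45 in HSRA-C. Its groups did not overlap, although this is a dim gene near the lower end of the scale, where the filter lay at 3.63. The difference was 0.29 (interval 0.15 to 0.42; limma adjusted p = 0.331), 0.31 without HSRA-C replicates 3 and 4 and 0.30 with the covariate. Slc25a13 was at 0.23, at 0.10 without those arrays and at 0.024 with the covariate. Slc25a15, the mitochondrial ornithine carrier, was at 0.36 (interval -0.052 to 0.78) with all arrays but at 0.049 without those 2. Arg1, the cytosolic arginase of liver, was dim, at 4.39 on the log2 scale in HSRA-S, against 4.36 in HSRA-C, with a difference of 0.031.

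Among 8 arginine transport genes tested, 2 were higher and 1 was lower at an unadjusted p under 0.05 (7.36% and 4.69% of all genes). Slc7a7, the light chain of the basolateral exporter of cationic amino acids, stood at log2 8.96, 8.52, 8.39 and 9.09 in HSRA-S, against 8.39, 8.33, 7.78 and 7.69 in HSRA-C. HSRA-S replicate 3 and HSRA-C replicate 1 met at log2 8.39, and the other arrays kept apart. It had the largest difference of the 40 genes, 0.69 (interval 0.25 to 1.13; limma adjusted p = 0.331), and was at 0.38 (interval -0.062 to 0.82) without HSRA-C replicates 3 and 4 and at 0.27 with the covariate. Slc3a2, its heavy chain, was 1.22-fold higher at a difference of 0.29 (interval 0.13 to 0.44), at 0.24 without those arrays and at 0.21 with the covariate. At the apical side, Slc7a9 was at 0.30 (interval -0.091 to 0.68) and its heavy chain Slc3a1 at -0.12 (interval -0.32 to 0.078). Slc7a9 was at 0.17 without those arrays, at 0.11 without HSRA-S replicate 4 and at -0.10, with its sign turned, with the covariate. Slc3a1 was at -0.26 (interval -0.45 to -0.066) without HSRA-C replicates 3 and 4 and at -0.19 with the covariate. Slc7a2, a cationic amino acid importer, was at -0.22 (interval -0.43 to -0.013), at -0.30 without those 2 arrays and at -0.38 with the covariate.

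Of 6 nitric oxide genes tested, 0 were higher and 0 lower at an unadjusted p under 0.05 by limma (7.36% and 4.69% of all genes). None had an adjusted p under 0.05. Nos3, the endothelial synthase, was at 0.040 (interval -0.13 to 0.21), and Ddah2, the relative of Ddah1, at -0.14 (interval -0.36 to 0.071). Agxt2, which transaminates asymmetric dimethylarginine, was at 0.024. Prmt1, which methylates arginine in proteins, was at -0.087, and Nos1 at -0.19 (interval -0.42 to 0.035). Nos1 was dim, with a mean log2 level of 4.53 in HSRA-S and 4.725 in HSRA-C. Nos1 was at -0.035 and Ddah2 at -0.22 without HSRA-C replicates 3 and 4, and with the covariate Nos3 was at 0.15 and Agxt2 at -0.15.

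Of 10 polyamine genes tested, 1 was higher at an unadjusted p under 0.05 and 0 were lower (7.36% and 4.69% of all genes). Azin1, which keeps ornithine decarboxylase from its antizyme, stood at log2 7.05, 7.16, 7.07 and 6.92 in HSRA-S, against 6.89, 6.84, 6.78 and 6.80 in HSRA-C. Its groups did not overlap, and its difference was 0.22 (interval 0.072 to 0.37; limma adjusted p = 0.331), 0.18 without HSRA-C replicates 3 and 4 and 0.26 with the covariate. Sat1, an acetyltransferase that opens polyamine breakdown, was at 0.15 and Amd1, which supplies aminopropyl groups, at 0.17, both with intervals that took in 0. Of the 5 proline and glutamate genes, Prodh2, a proline dehydrogenase that acts on hydroxyproline, was at 0.21 (interval 0.0028 to 0.41), at 0.17 without HSRA-C replicates 3 and 4 and at 0.041 with the covariate. Pycr1, a dim gene whose enzyme makes proline, was at 0.14 and at 0.25 without those arrays. Prodh was at 0.16 (interval -0.23 to 0.55) with all arrays and at -0.039 without those 2.

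**Figure D5:**
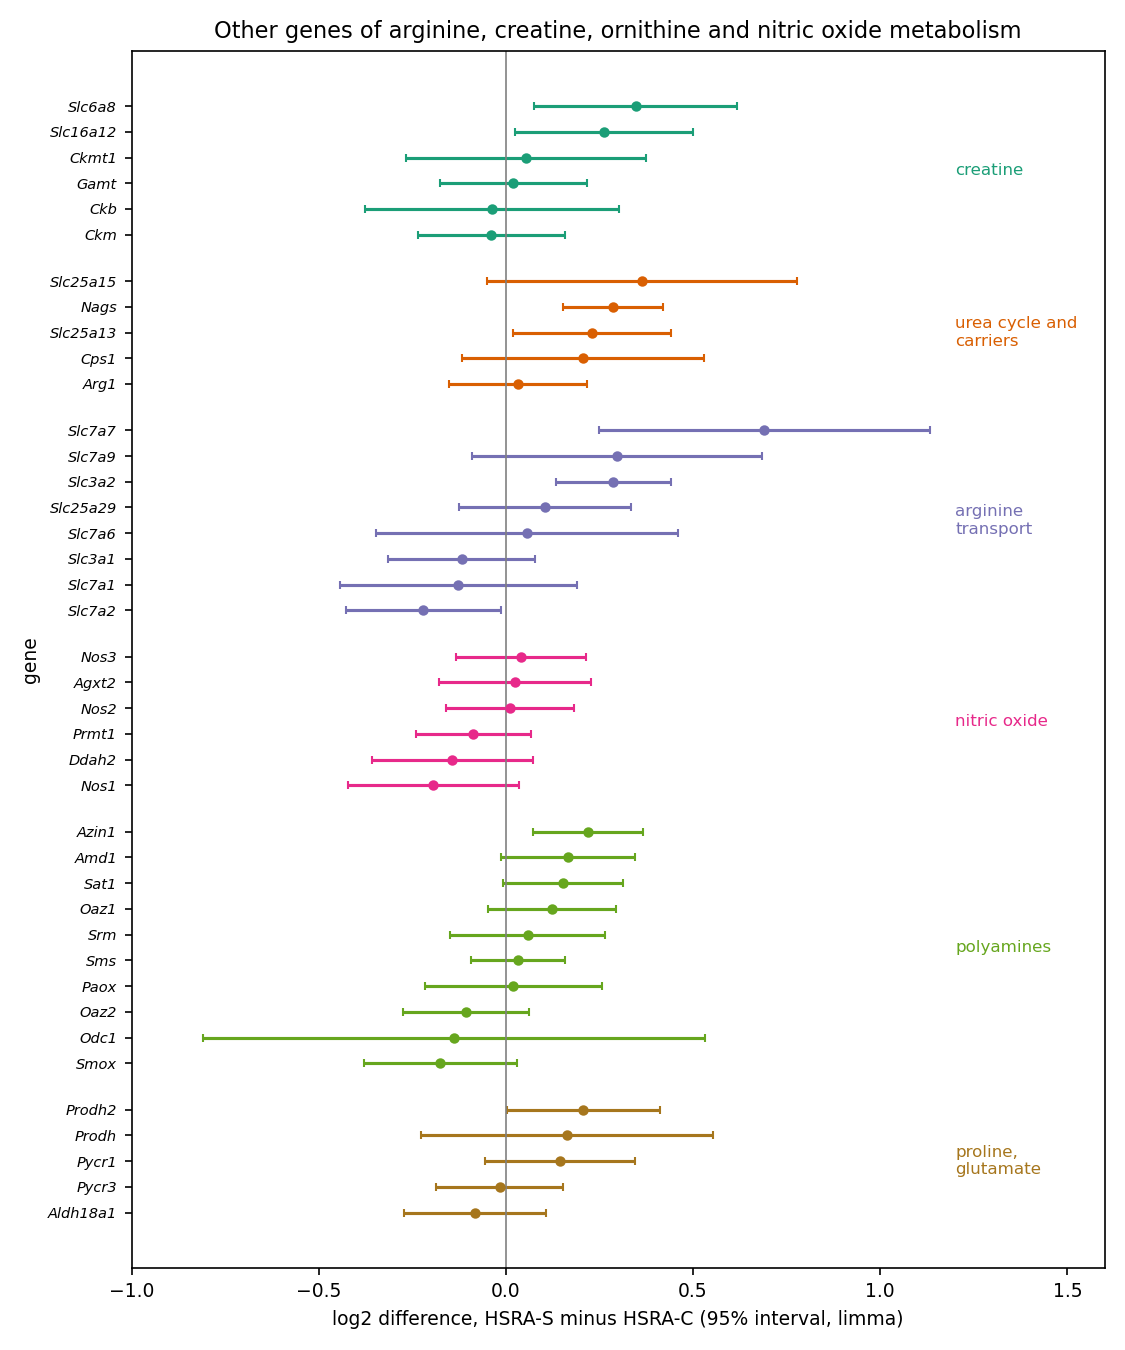
Log2 difference, HSRA-S minus HSRA-C (horizontal axis), with its 95% interval from limma, for 40 other genes in 6 lists (vertical axis), from all 8 arrays. Slc7a7 has the largest difference at 0.69, Odc1 the interval from -0.81 to 0.53, and the nitric oxide genes lie between -0.19 and 0.040.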

How the data were processed

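Whole kidneys of 4 HSRA-S and 4 HSRA-C rats were measured, 1 array per sample. The values deposited by the authors are RMA intensities on a linear scale (2.12 to 9259), with RMA named per the submitters' processing notes and its software not named there. RMA equalises the arrays and compresses dim genes, which can understate their differences. Log2 was taken here. Of 29214 probe sets, 18644 had 1 symbol in the platform annotation, 962 several and 9608 none. The probe set with the highest mean stood for a gene, and the dimmest 20% of genes, below a log2 mean of 3.63, were left out.

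Groups were compared with limma 3.58.1 in R 4.3.3 over 13796 genes, with Benjamini-Hochberg adjustment, a threshold of 0.05 and differences as HSRA-S minus HSRA-C. Genes named are the 7 members, 7 fixed pathway genes, up to 3 of smallest p per pathway list, and the 3 most alike per member. Others named in the lists, such as Slc3a1, Ckb and Prodh, and single markers such as Slc7a13, Cdh5 and Cyp11b1 were picked after their values were seen. The members and lists were chosen with earlier results of these data known. On data simulated from these 13796 genes, 80.5% of genes changed 1.5-fold and 95.9% of those changed 2-fold were called, with 200 genes changed in each of 10 runs. Of the calls, 4.88% were unchanged genes. The simulated noise was independent between arrays, with spreads shuffled among genes. It held neither arrays that stand apart nor the spread of each member, so these shares do not apply to single members. The samples are called biological replicates per the labels, and all p-values measure the spread between them. 22 alternatives were run, including each array left out in turn, other filters and normalizations, a replicate block and the tubule balance as a covariate.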

Additional observations from a re-analysis of the deposited data

How the results depend on the processing

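The adjusted p of the 7 members stayed above 0.05 in all 22 alternatives, and 0 members and 0 pathway genes were called in any of them. It ran from 0.171 to 0.977 for Gatm, 0.158 to 0.977 for Asl, 0.731 to 0.993 for Oat and 0.732 to 0.993 for Agmat. Gatm, Asl and Arg2 kept their sign throughout. Ass1 turned to -0.035 with the tubule balance as a covariate, Ddah1 to -0.113 with it and to -0.067 without HSRA-C replicates 3 and 4 together, and Agmat to -0.323 and -0.472 in those settings. Oat turned to 0.063 with array weights. Leaving out each array in turn gave -0.310 to 0.151 for Oat and -0.236 to 0.216 for Agmat. Members at an unadjusted p under 0.05, 2 in all, were 1 without moderation, 0 with the covariate and 1 to 2 when an array was left out, where Gatm dropped out without HSRA-C replicate 3 or replicate 4. Pathway genes on the higher side, 8 in all, were 4 without moderation, 3 without HSRA-C replicates 3 and 4, 5 with the covariate and 5 (without HSRA-S replicate 1 or HSRA-C replicate 3) to 10 (without HSRA-S replicate 3) when an array was left out. On the lower side, 1 in all, they were 0 with the dimmest 50% left out, with median centring, with quantile normalization and without moderation, and 3 with array weights and without HSRA-C replicates 3 and 4, with 0 (without HSRA-S replicate 2 or HSRA-C replicate 2) to 3 (without HSRA-S replicate 1) when an array was left out. The cause of these shifts was not tested. The labels do not say whether the replicate numbers pair the samples. Deviations of same-numbered samples correlated at -0.110 to 0.129, which cannot settle it. With the replicate block the differences were the same and 2 members were at an unadjusted p under 0.05. The limma adjusted p was then 0.278 for Asl and 0.371 for Gatm. The standard error fell from 0.263 to 0.135 for Agmat and from 0.152 to 0.101 for Arg2. It rose for Ass1, from 0.095 to 0.103, and for Ddah1, from 0.091 to 0.098. With 4 arrays a group, intervals of a member were 0.41 to 1.25 wide on the log2 scale. Dim genes such as Nags, Arg1, Nos1, Pycr1 and Ckm lie in the compressed range of the array.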
